A study of Mus musculus with 4 samples.

Results

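Hca-P and Hepa1-6, 2 mouse hepatocarcinoma cell lines, were compared for the mature miRNAs that a hybridisation array detects in their total RNA. Hca-P is a suspension line with the lower of 2 grades of lymphatic metastasis ability per the labels. It derives from H22, and its cells were injected into the abdominal cavity of 615-strain mice, grown for about 7 days, taken from the ascites and then cultured in RPMI-1640. Hepa1-6 is an adherent line without lymphatic metastasis that was cultured in DMEM. Both lines were untreated, and neither label gives a genetic change. The arrays of the other lines, H22 (suspension, no lymphatic metastasis) and Hca-F (suspension, higher lymphatic metastasis), are used here only to place the values. Hca-F also derives from H22 and was passaged like Hca-P, and the labels do not say how H22 was grown. Lymphatic spread, origin, growth form, culture medium and passage through a mouse all differ between Hca-P and Hepa1-6 and cannot be told apart. The members are the mouse miRNAs whose background-subtracted intensity reached 50 units in at least 1 of these 2 lines, which left 89 of the 414 mouse miRNAs on the array. Each line has 1 array, so there is no replicate check, no p-value, and every ± below is the SD over the 4 spots of a probe on 1 array.

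A miRNA is a short RNA that guides an Argonaute protein to messenger RNAs, mostly by pairing of its seed, the bases 2 to 8 from its 5′ end, and lowers their translation or stability. miRNAs that share a seed form a family with overlapping targets, and many lie in clusters that are transcribed as 1 RNA. The let-7 family is abundant in differentiated cells and represses growth genes such as Hmga2 and members of the Ras family, the miR-17-92 cluster is induced by Myc and represses Bim, and the miR-34 family is induced by p53. In liver, miR-122 is the dominant miRNA of hepatocytes.

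The sequences below are the mature miRNAs, from RefSeq (GRCm38.p6), of the miRNAs that lay farthest apart between the lines, with bases 2 to 8 in capitals. In addition, let-7b, let-7e and miR-93, less than 2-fold apart, are printed for their shared seeds. RefSeq entries were found for 70 of the 89 miRNAs, by name and, where the array name gives no arm, by the arm usually called the guide strand. Those of the let-7 family come first, because its 6 compared members share the seed GAGGUAG and 4 of them were higher in Hca-P.
let-7d: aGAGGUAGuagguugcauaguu (chr13:48536078-48536099, minus strand)
let-7a: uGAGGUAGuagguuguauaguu (chr13:48538239-48538260, minus strand)
let-7i: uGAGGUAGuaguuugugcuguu (chr10:122985698-122985719, minus strand)
let-7c: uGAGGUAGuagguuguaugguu (chr15:85706616-85706637, plus strand, 1 of 2 loci)
let-7b: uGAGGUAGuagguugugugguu (chr15:85707325-85707346, plus strand)
let-7e: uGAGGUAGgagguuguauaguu (chr17:17830366-17830387, plus strand)

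The next 4 share the seed AAAGUGC, which the clusters miR-17-92 and miR-106b-25 both carry, and miR-18a, from the former cluster, is set beside them because its seed is AAGGUGC.
miR-17: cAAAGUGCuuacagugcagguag (chr14:115043684-115043706, plus strand)
miR-20a: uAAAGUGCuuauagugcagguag (chr14:115044183-115044205, plus strand)
miR-106b: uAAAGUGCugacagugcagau (chr5:138165787-138165807, minus strand)
miR-93: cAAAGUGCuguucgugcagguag (chr5:138165574-138165596, minus strand)
miR-18a: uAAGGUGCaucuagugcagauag (chr14:115043867-115043889, plus strand)

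Other miRNAs higher in Hca-P have seeds of their own.
miR-762: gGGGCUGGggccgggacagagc (chr7:127708534-127708555, plus strand)
miR-744: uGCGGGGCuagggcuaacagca (chr11:65734799-65734820, minus strand)
miR-763: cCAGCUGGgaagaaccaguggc (chr10:120448052-120448073, minus strand)
miR-129-5p: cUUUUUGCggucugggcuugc (chr2:94241419-94241439, minus strand, 1 of 2 loci)
miR-711: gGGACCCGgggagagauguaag (chr9:108969970-108969991, plus strand)
miR-193: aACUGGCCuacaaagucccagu (chr11:79712009-79712030, plus strand)
miR-23a: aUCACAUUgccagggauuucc (chr8:84208563-84208583, plus strand)
miR-130a: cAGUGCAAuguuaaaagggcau (chr2:84741116-84741137, minus strand)
miR-22: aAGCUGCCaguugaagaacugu (chr11:75463772-75463793, plus strand)
miR-370: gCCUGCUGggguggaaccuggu (chr12:109618305-109618326, plus strand)

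The miRNAs lower in Hca-P are shown for the same reason, and no seed is repeated among those printed. Also lower were miR-34c and probes of miR-466, miR-467 and miR-669, for which no RefSeq entry was found, so their seeds were not compared.
miR-340-5p: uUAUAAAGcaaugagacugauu (chr11:50069720-50069741, plus strand)
miR-34a: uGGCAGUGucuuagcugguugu (chr4:150068473-150068494, plus strand)
miR-329: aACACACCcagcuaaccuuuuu (chr12:109713541-109713562, plus strand)
miR-206: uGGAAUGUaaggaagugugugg (chr1:20679055-20679076, plus strand)
miR-713: uGCACUGAaggcacacagc (chr13:62760807-62760825, plus strand)
miR-667: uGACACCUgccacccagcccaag (chr12:109720061-109720083, plus strand)
miR-678: gUCUCGGUgcaaggacuggagg (chr10:76207333-76207354, minus strand)
miR-693-5p: cAGCCACAuccgaaaguuuuc (chr17:46231551-46231571, plus strand)
miR-761: gCAGCAGGgugaaacugacaca (chr4:109017669-109017690, plus strand)
miR-207: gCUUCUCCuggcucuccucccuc (chr4:40722968-40722990, plus strand)
miR-341: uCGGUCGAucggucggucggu (chr12:109611556-109611576, plus strand)
miR-697: aACAUCCUgguccuguggaga (chr4:124731768-124731788, plus strand)
miR-361: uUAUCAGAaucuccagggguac (chrX:113074867-113074888, minus strand)
miR-99b*: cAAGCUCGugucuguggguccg (chr17:17830232-17830253, plus strand)

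A level below is the mean of the 4 spots divided by the factor of its array, 396.25 units for Hca-P and 403.75 units for Hepa1-6, which is the median of the same 65 probes in each. These 65 are the mouse probes and the maker's miRPlus probes at 50 units or more in all 4 arrays. An intensity under 50 units was set to 50 for the fold, equal to a level of 0.126 in Hca-P and 0.124 in Hepa1-6, and folds that rest on this floor carry the words "at least" or are called bounds. The minimum was reached by 75 miRNAs in Hca-P and by 71 in Hepa1-6, and 57 reached it in both lines. Empty positions gave at most 2 units in Hca-P and 1.25 units in Hepa1-6. The median SD over spots was 19.3% of the mean in Hca-P and 18.6% in Hepa1-6, over the miRNAs measured in both. Nearest the minimum from below, miR-27a gave 49.5, miR-500 49.25 and miR-16 49 units in Hca-P, and miR-338-3p 48 units in Hepa1-6, while miR-103 at 50.25, miR-490 at 51.5 and miR-200b* at 52 units lay just inside.

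Of the 89 miRNAs, 50 were at least 2-fold apart, a share of 56.2%. In Hca-P 28 were higher (31.5%) and 22 lower (24.7%), and the median log2 fold over all 89 was 0.07, with a range from -2.31 to 4.39. Of the 50, 39 were also apart by more than 2 combined spot SDs (43.8% of the 89). The 4 spots of the lines did not overlap for 24 of the 28 higher and for 21 of the 22 lower. Spots also did not overlap in miRNAs less than 2-fold apart, such as miR-24, miR-210, miR-322 and miR-717, so non-overlap is not particular to the 50. Among the 57 measured in both lines 17 were higher and 15 lower. The 18 measured only in Hca-P could only come out higher or nearly equal, and 11 were at least 2-fold higher, while the 14 measured only in Hepa1-6 could only come out lower or nearly equal, and 7 were at least 2-fold lower. With each array scaled to the 75th percentile of its mouse probes instead, the split turned to 21 higher and 28 lower and the median log2 fold to -0.30, so the balance of higher and lower rests on the scaling. None of the 50 changed direction in any of the alternatives.

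**Figure D1:**
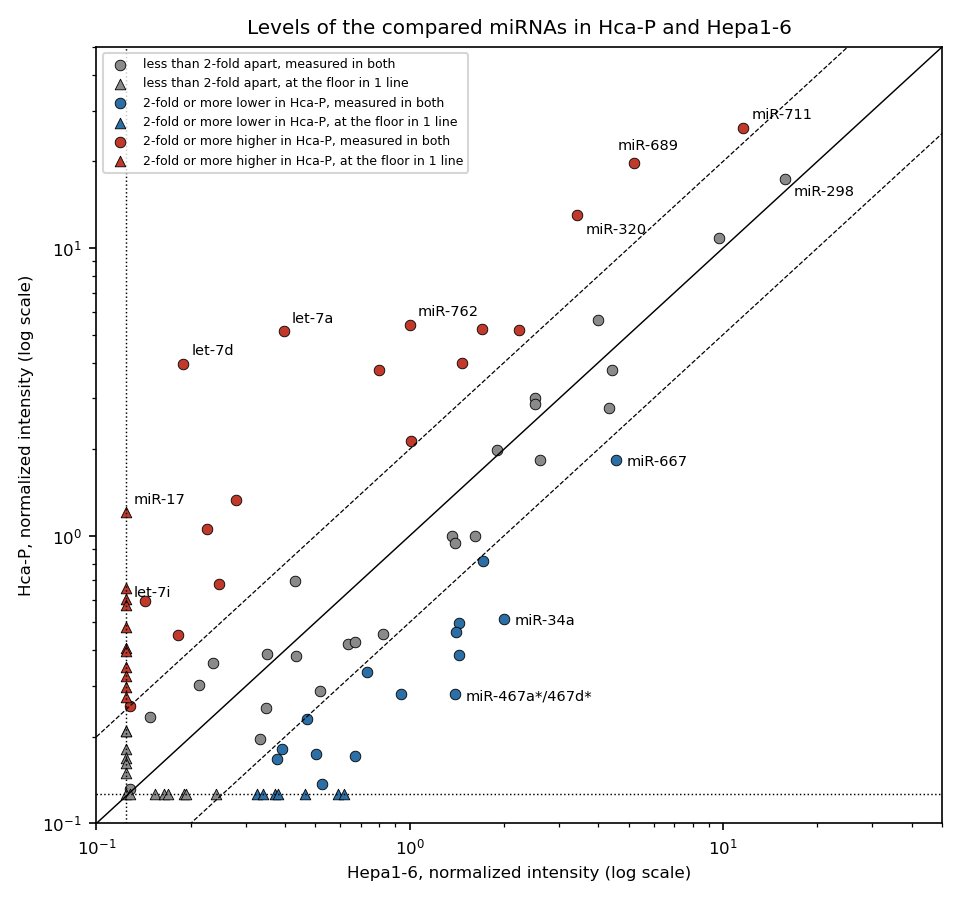
Level in Hca-P (vertical axis) against level in Hepa1-6 (horizontal axis) of the 89 miRNAs, both on log axes, with colours for 2-fold or more higher, lower and less than 2-fold apart, and triangles for miRNAs drawn at the floor in 1 line. The solid line marks equal levels, dashed lines mark 2-fold and dotted lines the floor, and let-7d and let-7a lie farthest above the solid line.

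The let-7 family lay mostly higher in Hca-P. The array carries 13 probes of its names, of which 6 reached the minimum. Those of let-7f, let-7g, miR-98 and the names marked with a star did not, in either line. Of the 6, 4 were higher and none lower, beside 31.5% higher and 24.7% lower over all 89. Their median log2 fold was 1.71 beside 0.07. The share at least 2-fold apart in either direction was 66.7%, near the 56.2% over all 89. The level of let-7d was 3.96 ± 0.403 in Hca-P and 0.189 ± 0.0222 in Hepa1-6, a 21.0-fold difference that was the largest among the 57 miRNAs measured in both lines. For let-7a the levels were 5.15 ± 0.448 and 0.396 ± 0.0807, 13.0-fold apart. Every Hca-P spot of both miRNAs, at 3.43 or more, exceeded every Hepa1-6 spot, at 0.510 or less. The level of let-7i was 0.572 ± 0.0301 in Hca-P and under the minimum in Hepa1-6 (0.0198 ± 0.0139), at least 4.62-fold higher. For let-7c the levels were 5.19 ± 0.483 and 2.23 ± 0.272, 2.33-fold apart. The remaining members stayed within 2-fold, at 2.86 ± 0.168 and 2.50 ± 0.890 for let-7b and 0.420 ± 0.297 and 0.637 ± 0.175 for let-7e, and their spots overlapped. As the printed sequences show, the members are nearly alike beyond the seed, and how far their probes share signal was not tested. Under quantile normalization let-7c was 0.52 on the log2 scale, and 0.85 with the 75th percentile, no longer 2-fold apart in either, whereas let-7d stayed between 3.67 and 4.65 and let-7a between 3.28 and 3.96 over all alternatives.

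**Figure D2:**
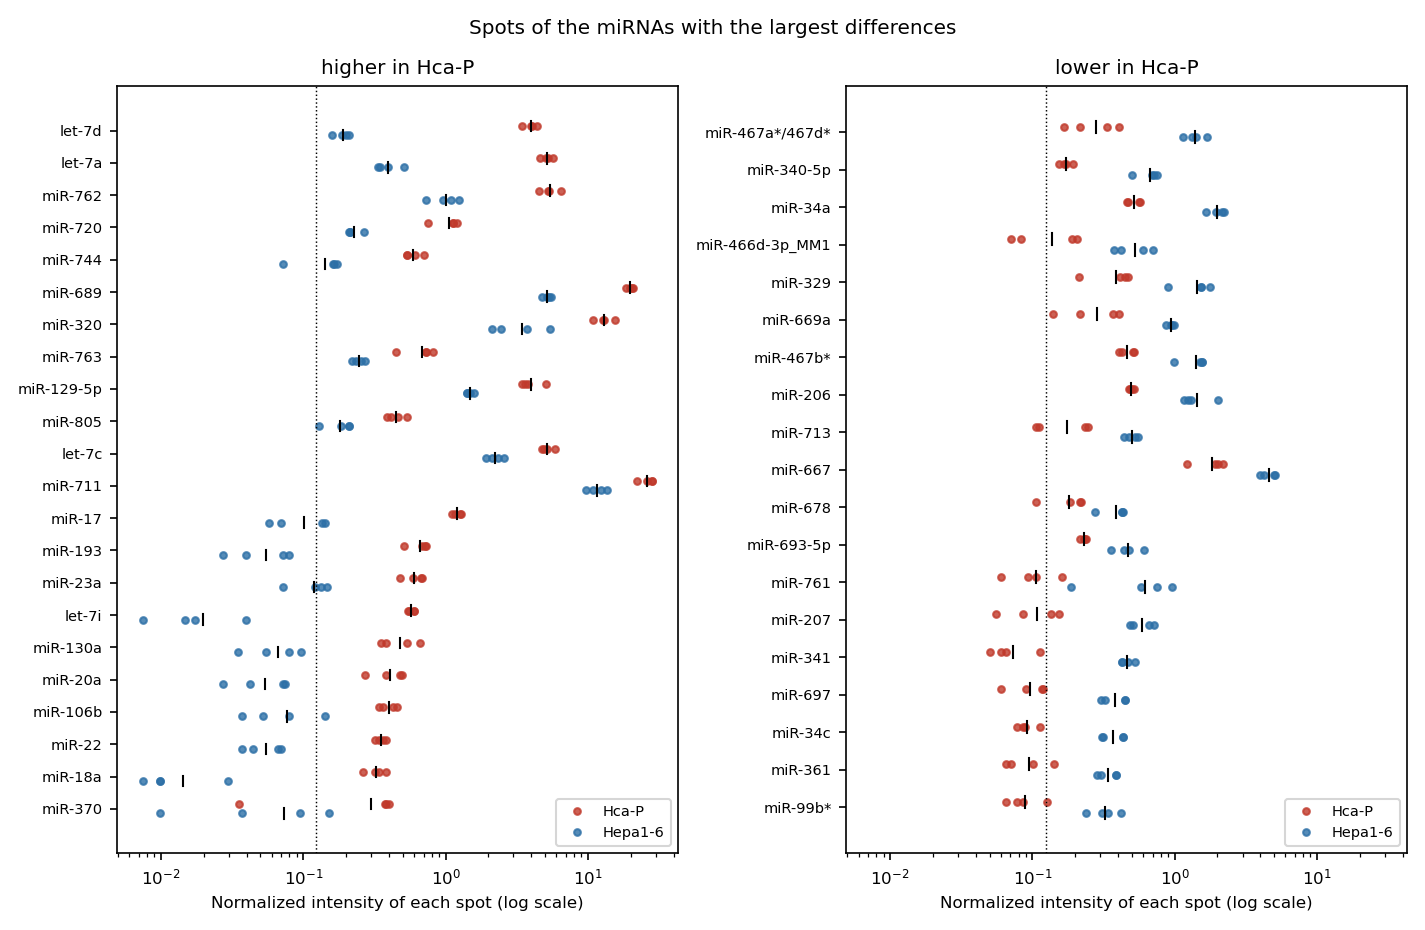
Level of each of the 4 spots, on a log axis, for the miRNAs with the largest folds in each direction, with Hca-P in red, Hepa1-6 in blue, a black tick at the mean of the 4 spots and a dotted line at the floor. Spots of let-7d, let-7a and miR-762 form separate groups for the lines, and the spots of miR-34a and miR-340-5p do so in the opposite order.

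Of the miR-17-92 cluster, 4 of 9 probes reached the minimum, all in Hca-P and none in Hepa1-6, so every fold here is a bound and could only lie upward. miR-17 had a level of 1.21 ± 0.0831 in Hca-P against 0.101 ± 0.0440, at least 9.73-fold higher. miR-20a gave 0.408 ± 0.103 against 0.0539 ± 0.0230, at least 3.29-fold higher, and miR-18a 0.326 ± 0.0502 against 0.0142 ± 0.0104, at least 2.63-fold higher. The fourth, miR-19b, was at 0.162 ± 0.0861 and 0.0105 ± 0.00237, and its bound of 1.30-fold did not reach 2-fold. In Hepa1-6 none of the cluster's probes exceeded 40.75 units, the value of miR-17. From the related cluster inside the Mcm7 gene, miR-106b was at least 3.21-fold higher, with 0.398 ± 0.0536 against 0.0774 ± 0.0460, and miR-93, which lies beside it, had a bound of 1.46-fold. With the minimum raised to 100 units the log2 bounds shrank by construction, to 0.72 for miR-20a, 0.39 for miR-18a and 0.68 for miR-106b.

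Other growth-related and housekeeping families gave fewer members. miR-23a, from the miR-23a-27a-24 cluster on chromosome 8, was at least 4.88-fold higher in Hca-P (0.604 ± 0.0933 against 0.118 ± 0.0326), and miR-24 of that cluster had a bound of 1.70-fold. miR-130a was at least 3.89-fold higher, at 0.482 ± 0.145 against 0.0663 ± 0.0272. miR-222, which represses the cell-cycle inhibitor p27, had a bound of 2.22-fold, but its Hca-P spots ran from 0.0454 to 0.391. miR-193 was at least 5.32-fold higher (0.659 ± 0.104 against 0.0545 ± 0.0250) and miR-22 at least 2.82-fold (0.350 ± 0.0268 against 0.0545 ± 0.0161). None of the 15 probes of the miR-26, miR-29 and miR-30 families and none of the 5 of the miR-181 family reached the minimum in either line. From the miR-15 and miR-16 seed family, only miR-322 and miR-195 reached it, in Hepa1-6, with bounds of 1.53-fold and 1.22-fold lower in Hca-P.

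Both compared members of the miR-34 family were lower in Hca-P, beside 24.7% of all 89. miR-34a, which represses cell-cycle and survival genes downstream of p53, was at 0.515 ± 0.0570 in Hca-P and 1.996 ± 0.256 in Hepa1-6, 3.88-fold lower in Hca-P. No Hca-P spot exceeded 0.568 and no Hepa1-6 spot was under 1.66. miR-34c was under the minimum in Hca-P (0.0915 ± 0.0153) and at 0.372 ± 0.0716 in Hepa1-6, at least 2.94-fold lower. That value comes from 1 of 2 probes for the name, the other probe was under the minimum in both lines, and with the mean of both probes the log2 bound was -0.57. The other 2 of the 4 probes of the list did not reach the minimum.

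Of 8 probes of the Sfmbt2 cluster, a large rodent cluster in an intron of the Polycomb gene Sfmbt2, 5 reached the minimum. The others, miR-297b-5p, miR-669b and miR-467b, did not in either line. All 5 compared members were at least 2-fold lower in Hca-P, beside 24.7% of all 89, with a median log2 fold of -1.73 beside 0.07. This list stayed between -2.10 and -1.37 in the alternatives. The probe shared by miR-467a* and miR-467d* gave 0.281 ± 0.109 in Hca-P and 1.39 ± 0.220 in Hepa1-6, 4.97-fold lower. miR-669a was 3.32-fold lower (0.283 ± 0.127 against 0.938 ± 0.0494) and miR-467b* 3.03-fold lower (0.464 ± 0.0574 against 1.40 ± 0.274). A probe named miR-466d-3p with a suffix that the files do not explain was 3.83-fold lower, at 0.137 ± 0.0697 against 0.524 ± 0.156. miR-669c was 2.17-fold lower, but its levels of 0.337 ± 0.180 and 0.731 ± 0.254 were within 2 combined spot SDs, and its call was lost at -0.85 when the arrays were scaled to the mouse probes at the minimum in both lines. How far the 5 probes share signal was not tested.

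**Figure D3:**
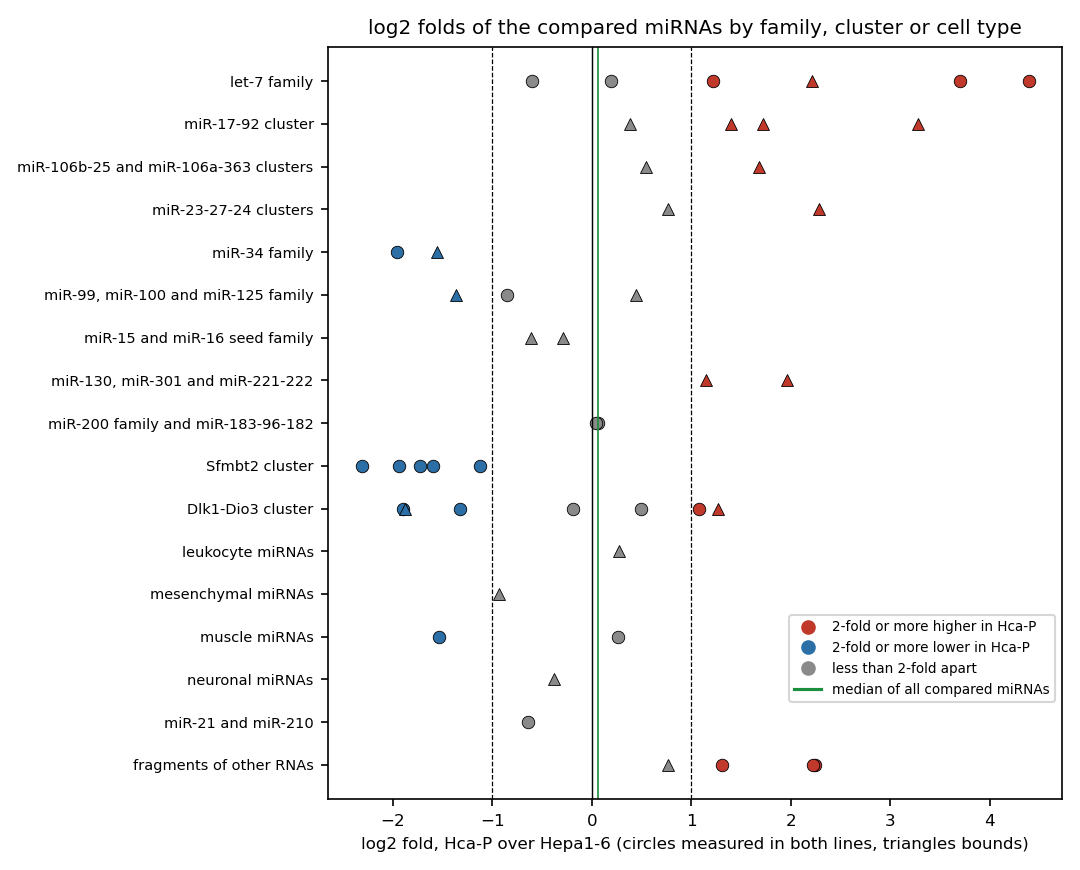
Log2 fold, Hca-P over Hepa1-6, of each compared miRNA in the lists, 1 row a list, with triangles for bounds, dashed lines at 2-fold in either direction and a green line at the median of all 89 (0.07). The 4 miR-17-92 points and 5 of the 6 let-7 points, all but let-7e, lie right of zero, the Sfmbt2 and miR-34 points lie on the left, and the Dlk1-Dio3 points on both sides.

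The Dlk1-Dio3 imprinted cluster on chromosome 12 lay on both sides of the comparison. Of its 47 probes 7 reached the minimum, 2 were higher and 3 lower, beside 31.5% and 24.7% over all 89, and the median log2 fold was -0.19. miR-329 was 3.73-fold lower (0.385 ± 0.118 against 1.43 ± 0.376), miR-667 was 2.50-fold lower (1.83 ± 0.424 against 4.57 ± 0.554), and miR-341 was at least 3.66-fold lower. miR-370 had a bound of 2.41-fold higher, with spots from 0.0353 to 0.401 in Hca-P, and miR-668 was 2.12-fold higher, at 2.13 ± 0.579 against 1.01 ± 0.194, both within 2 combined spot SDs. miR-494, one of the 10 brightest in both lines, was at 5.61 ± 1.32 and 3.99 ± 0.222, and miR-770-3p at 0.380 ± 0.0559 and 0.433 ± 0.0806. miR-370 and miR-341, less than 10000 bases apart in the genome, differed in direction.

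Among the other lower miRNAs, miR-340-5p, from an intron of Rnf130, was 3.89-fold lower in Hca-P, at 0.172 ± 0.0169 against 0.668 ± 0.111. miR-207 was at least 4.68-fold lower (0.108 ± 0.0453 against 0.591 ± 0.110), miR-697 at least 3.02-fold, and miR-361, from an intron of Chm, at least 2.70-fold. miR-99b* was at least 2.58-fold lower, while miR-125a-5p of the same cluster, at 0.288 ± 0.0473 and 0.519 ± 0.111, stayed within 2-fold and let-7e, also in it, did too. miR-713 (2.88-fold), miR-678 (2.15-fold) and miR-693-5p (2.04-fold) were lower as well. The bound for miR-761, at least 4.89-fold, rests on Hepa1-6 spots from 0.188 to 0.954 and lay within 2 combined spot SDs.

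Some probes with high signal, and some dimmer ones, also differed. miR-762 was at 5.41 ± 0.794 in Hca-P and 1.00 ± 0.214 in Hepa1-6, 5.41-fold higher. miR-689 was at 19.8 ± 0.984 against 5.20 ± 0.316 (3.81-fold), and miR-711 at 26.2 ± 2.97 against 11.6 ± 1.73 (2.25-fold), with their calls lost under quantile normalization at log2 folds of 0.79 and 0.42. miR-320, whose precursor is made without Drosha in mouse, was at 13.0 ± 1.93 and 3.42 ± 1.48, 3.81-fold higher. miR-129-5p was 2.70-fold and miR-763 2.77-fold higher. Among the 10 brightest of Hepa1-6, miR-185 (3.78 ± 2.01 in Hca-P, 4.43 ± 0.206 in Hepa1-6), miR-452 (2.78 ± 1.21, 4.31 ± 1.02) and miR-691 (1.83 ± 0.386, 2.61 ± 0.673) were less than 2-fold apart. miR-744 was 4.18-fold higher by the brighter of its 2 probes, 0.595 ± 0.0783 against 0.142 ± 0.0474. The dimmer gave 0.187 ± 0.0412 in Hca-P and lay under the minimum in Hepa1-6, and its bound of 1.51-fold did not reach 2-fold. miR-675-5p, processed from the imprinted RNA H19, was 4.77-fold higher, but at 1.34 ± 0.604 against 0.280 ± 0.0317 it was within 2 combined spot SDs.

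Some probe names stand for fragments of other RNAs rather than miRNAs. miR-720, from a transfer RNA, was 4.65-fold higher in Hca-P, miR-805, from the mitochondrial genome, 2.48-fold, and miR-801, from the U11 small nuclear RNA, 4.73-fold with spots from 1.27 to 5.17. miR-712*, from the ribosomal RNA precursor, had a bound of 1.70-fold. Of 2 probes for the U6 small nuclear RNA, 1 was at 4.60 ± 0.420 in Hca-P and 1.26 ± 0.0831 in Hepa1-6, and the other at 31.75 and 6.5 units, under the minimum. A probe for the small nucleolar RNA SNORD3@ lay the other way, at 0.527 ± 0.326 in Hca-P and 0.858 ± 0.0632 in Hepa1-6. The part of these other small RNAs in the miRNA results was not tested.

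The median over all mouse probes was 11 units in Hca-P and 3.5 units in Hepa1-6. Units under the minimum, and sums of them, are therefore not read as differences between the lines. Probes of the tissue-identity lists were mostly under the minimum. None of the 7 hepatocyte probes reached it: miR-122 gave 19.25 units in Hca-P and 33 units in Hepa1-6, and the 7 summed to 65.5 and 83.25 units. The array therefore did not detect the defining miRNA of hepatocytes in either line. Leukocyte probes summed to 155.5 units in Hca-P and 17.25 units in Hepa1-6, with 1 of 7 at the minimum, miR-142-5p at 59.25 against 1.25 units, a bound of 1.21-fold. In bulk RNA a smaller number of cells of a type and less RNA per cell cannot be told apart, and Hca-P was taken from ascites, so the part of leukocytes in the results was not tested. The 2 erythroid probes summed to 16 and 15 units, the 2 endothelial probes to 20 and 6.25 units. Of 8 mesenchymal probes 1 reached the minimum, miR-214 at 0.241 ± 0.0742 in Hepa1-6, a bound of 1.91-fold lower in Hca-P. The muscle miRNA miR-206 was 2.89-fold lower in Hca-P (0.496 ± 0.0171 against 1.43 ± 0.395), whereas miR-1, of the same seed family, was at 3.01 ± 1.23 and 2.51 ± 0.153. The 5 neuronal probes summed to 78.5 units in Hca-P and 81 units in Hepa1-6. Only miR-138 of these reached the minimum, in Hepa1-6, with a bound of 1.30-fold lower in Hca-P. The others, miR-124, miR-9*, miR-9 and miR-137, were under the minimum in both lines. They gave more units in Hca-P, as did the median over all mouse probes. miR-210, the hypoxia-responsive miRNA, was 1.56-fold lower in Hca-P. Closest to equal among those measured in both lines were miR-200b*, miR-183*, miR-298, miR-760 and miR-709, all within 1.12-fold. The value of miR-298 comes from the brighter of 2 probes, and the other was under the minimum in both lines, at 18 units in Hca-P and 35.5 units in Hepa1-6.

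Levels in the other 2 lines were set beside these. For let-7a the level was 11.0 ± 1.17 in H22 and 0.475 ± 0.0670 in Hca-F, and for let-7d 5.47 ± 0.103 and 0.438 ± 0.0452. In both miRNAs H22 stood above Hca-P, and Hca-F lay below Hca-P. Hca-F lay above Hepa1-6 for let-7d. For let-7a the spots of Hca-F and Hepa1-6 overlapped, and the intensities before scaling were 154 and 160 units, so their order rests on the scaling. miR-34a gave 1.30 ± 0.165 in H22 and 1.07 ± 0.126 in Hca-F, both between the 2 lines. miR-762 was at 0.519 ± 0.0757 in H22 and 3.51 ± 0.193 in Hca-F, and miR-697 at 4.87 ± 0.351 in H22 and 0.184 ± 0.0603 in Hca-F. Of the 28 miRNAs higher in Hca-P, H22 lay above both lines in 9, below both in 6, nearer Hca-P in 5 and nearer Hepa1-6 in 8. Of the same 28, Hca-F lay above both in 4 and was nearer each line in 12. For the 22 lower in Hca-P, H22 lay above both in 6, nearer Hepa1-6 in 14 and nearer Hca-P in 2, and Hca-F lay above both in 5, nearer Hepa1-6 in 10 and nearer Hca-P in 7. Of the 18 measured only in Hca-P, 6 were under the minimum in both H22 and Hca-F (miR-18a, miR-222, miR-125b-3p, miR-19b, miR-142-5p and miR-103), and of the 14 measured only in Hepa1-6, miR-717 and miR-341 were.

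**Figure D4:**
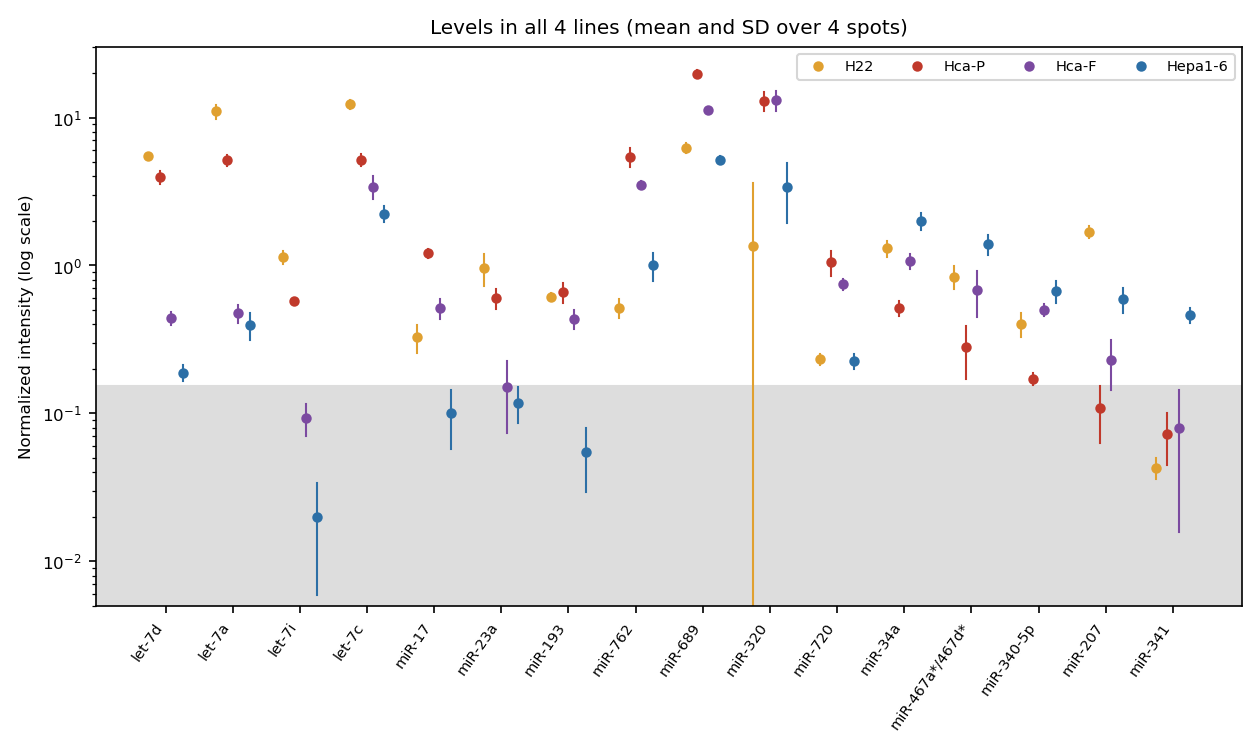
Level of selected miRNAs in H22, Hepa1-6, Hca-P and Hca-F on a log axis, with error bars of 1 SD over 4 spots and levels under the highest floor of the 4 arrays on grey. The let-7a and let-7d points of Hca-P and H22 stand above those of Hepa1-6 and Hca-F, and the miR-34a point of Hca-P stands below all others.

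The 4 spots of a probe were uneven in Hca-P and in other arrays. The first spot was the lowest of the 4 in 28 of the 57 miRNAs measured in both lines, against 13 in Hepa1-6, and it was under 50% of the probe mean in 8, against 1. The Hca-F array showed the same, with the first spot lowest in 28 and under 50% in 7, and in H22 the second spot was lowest in 27. miR-690 is an example, with spots of 0.972, 6.84, 6.27 and 6.89 in Hca-P and 1.70 ± 0.140 in Hepa1-6. Its log2 fold went from 1.63 to 1.91 without the first spot. That of miR-801 went from 2.24 to 2.53, and that of miR-468 from -1.07 to -0.70, which ended its call.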

How the data were processed

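Total RNA of the lines was hybridised to a miRCURY LNA array, labelled with Hy3 and scanned on a GenePix 4000B scanner, per the labels. The authors' deposited values are linear intensity: foreground and background-subtracted spot intensity, and a normalized intensity that the labels describe as the spot mean over the array's median of miRNAs at 50 or more in all samples. Recomputed from the spots, the normalized intensity equalled the deposited one. No source used here gives the probe annotation's release. GenePix Pro is named per the labels as version 6.1 for Hepa1-6 and 6.2 for Hca-P.

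The mouse probes were 417 for 414 names among 2448 positions, and the brighter probe was kept where a name had more than 1. Python 3.11.15 with numpy 2.4.6 and pandas 2.3.3 computed the levels, and limma 3.58.1 in R 4.3.3 the normexp alternative. The calculation of the folds was tested on simulated data, which does not show how arrays or lines vary. The number of arrays limits the precision, and spots show only how evenly an array measured a probe. Named miRNAs are the 12 largest folds in each direction measured in both lines, 2-fold apart and past 2 combined spot SDs. Also named are up to 10 of the largest bounds of 2-fold or more in each direction (10 higher and 7 lower). The list members at 50 units, the 10 brightest of each line and the 5 closest to equal are named too. Further miRNAs were singled out after their values were seen: miR-717, miR-877, miR-31, miR-184, miR-714, miR-675-5p, miR-468 and those nearest the minimum. The members and lists were chosen with earlier results of these data known. The alternatives were other scalings, minimums, thresholds, spot summaries and background corrections.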

Additional observations from a re-analysis of the deposited data

Results flagged for a closer look

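Probes outside the mouse set carried signal. Of 1595 probes marked as not designed for mouse, 318 reached 50 units in Hca-P or Hepa1-6, 254 in Hca-P and 277 in Hepa1-6, whereas none of 85 empty positions did. Between the lines 67 of them were at least 2-fold higher and 69 lower in Hca-P, with a median log2 fold of -0.14. Of 77 miRPlus probes, sequences of the maker, 17 reached the minimum, 9 were higher and 2 lower in Hca-P, and the median log2 fold was 1.12. Neither set is among the 89 miRNAs compared. The miRPlus probes at 50 units or more in all 4 arrays do enter the factors that scale each array, and so every fold. With the median of mouse probes at the minimum in both lines instead, the median log2 fold over the compared miRNAs was 0.33 rather than 0.07.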

How the results depend on the processing

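No paired analysis was possible because each line has 1 array, and for the same reason no replicate could be left out. None of the 50 miRNAs called apart changed direction in any alternative, which the 18 bounds among them could hardly do. The median log2 fold over all compared miRNAs was 0.07 and became -0.30 with the 75th percentile, -0.26 after quantile normalization, 0.33 with the median of mouse probes at the minimum in both lines, and -0.049 without the third spot. At a 3-fold threshold 17 were higher and 11 lower, and at a minimum of 100 units 13 were lower. Quantile normalization kept 44 of the 50 calls and the 75th percentile 43. Among the named miRNAs, calls were lost under quantile normalization for let-7c, miR-689, miR-711, miR-129-5p (0.90) and miR-668 (0.90), and with the 75th percentile for let-7c, miR-711 (0.81), miR-805 (0.95), miR-222 (0.78), miR-370 (0.90) and miR-668 (0.72). With normexp they were lost for miR-678, miR-693-5p, miR-669c, miR-805, miR-668 and miR-468 (-0.96). The higher count ran from 17 to 33 and the lower from 11 to 32 over all alternatives. Signal near the minimum limits the low miRNAs: raising the minimum to 100 units left 73 miRNAs and 32 calls, all of them among the 50. The authors' normalized values gave the same 28 higher and 22 lower.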

Other observations

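Over the miRNAs with a RefSeq sequence, the median GC content of the mature sequence was 47.8% in those higher in Hca-P, 50% in those within 2-fold and 52.4% in those lower.

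Across probes measured in both lines of a pair, the deviations of the 4 spots from their probe mean correlated at 0.674 between the Hca-P and Hca-F arrays over 64 probes, at 0.628 between Hepa1-6 and H22 over 66, and at 0.168 between Hca-P and Hepa1-6 over 57. Spots of 1 array share a slide, and this is a description with no test.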
